A study of Mus musculus with 4 samples.

Results

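The genes that encode the subunits of the oxidative phosphorylation machinery were examined in medullary thymic epithelial cells (mTECs) of female and male mice. Members were all genes of the count table whose symbol begins with Ndufa, Ndufb, Ndufc, Ndufs or Ndufv and a digit, with Uqcr, with Cox4 to Cox8 or with Atp5, together with Sdha, Sdhb, Sdhc and Sdhd. The rule found 84 of the 23366 gene symbols in the table, of which 37 belong by name to complex I, 4 to complex II, 8 to complex III, 18 to complex IV and 17 to complex V. All mice were wild-type C57BL/6 animals aged 6 to 8 weeks, and the groups differed in sex alone by their labels. Cells without propidium iodide or CD45 signal, positive for MHCII and low in Ly51, were sorted, and each library was made from a pool of 10 mice, which gave female pool 1, female pool 2, male pool 1 and male pool 2. Pooling leaves 2 values per sex, and the spread between mice within a pool cannot be seen. Autoimmune disease is less frequent in males, and the study asked whether androgen acts on Aire, which drives the transcription of tissue-specific antigens in these cells. The sexes were sequenced to set the transcripts of males against those of females.

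Oxidative phosphorylation takes place in the inner mitochondrial membrane. Complex I (NADH dehydrogenase) and complex II (succinate dehydrogenase) pass electrons from NADH and succinate to ubiquinone, complex III (the cytochrome bc1 complex) passes them to cytochrome c, and complex IV (cytochrome c oxidase) passes them to oxygen. Complexes I, III and IV pump protons in doing so, and complex V (ATP synthase) lets the protons return and makes ATP. Each complex has a few catalytic core subunits, and all but complex II carry many small accessory subunits around them. The subunits encoded by mitochondrial DNA, and the nuclear subunit genes Ndufab1 and Cyc1, are outside the rule and were not analysed here. Some entries in the rule are not classical subunits of the complex in their name. Cox7a2l takes part in joining complexes into supercomplexes, Atp5s is a coupling factor and Atp5sl is related to it in sequence. Ndufa4 is counted with complex I by its name but is known to sit in complex IV.

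The pools held between 1976272 (female pool 2) and 7103627 (male pool 1) reads counted on genes. Values are given as normalized CPM, which are counts relative to the depth of the library after TMM scaling for its composition. Of the 84 members, 79 passed the filter on low counts and were among the 10865 genes tested. Male pool 2 stood apart, with a TMM factor of 0.78 against 1.03 to 1.18 in the other pools and with the highest chi-square per degree of freedom against each of them (23.0 to 89.9, compared with 10.1 to 18.7 among the other 3 pools). The main results are therefore also given without it. The libraries held RNA of other cells. Transcripts of the B cell gene Cd79a (1456 to 2434 normalized CPM), the myeloid gene Lyz2 (841 to 3327) and Ptprc, which encodes CD45 (180 to 304), were more abundant than the mTEC gene Aire (19.3 to 31.7). In bulk RNA, a smaller number of cells of a type and less RNA per cell cannot be told apart.

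Taken over all members, subunit transcripts made up 1.82% of the reads on genes in female pool 1 (95% Wilson interval 1.81% to 1.83%), 2.53% in female pool 2 (2.51% to 2.55%), 2.03% in male pool 1 (2.02% to 2.04%) and 4.08% in male pool 2 (4.06% to 4.10%). These intervals cover counting error only. The summed level was 17350 and 24750 normalized CPM in pools 1 and 2 of the females and 17250 and 52540 in those of the males. Both first pools were thus alike, female pool 2 was higher and male pool 2 was higher again. The female pools averaged 21050 ± 5230 and the male pools 34890 ± 24950 (mean ± SD, n = 2), a difference smaller than the spread between the male pools (exact permutation test, two-sided, p = 1, where the smallest p the design allows is 0.333).

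Complex I, III and IV followed this order of the pools. Complex I summed to 4944 and 7990 normalized CPM in female pools 1 and 2 and to 4916 and 17810 in male pools 1 and 2. The sums for complex III were 1919, 3178, 1852 and 7094 in the same order, and those for complex IV were 3784, 5775, 3543 and 13700. In complex V the steps were smaller, with 6019, 7123, 6200 and 13250. Complex II, whose 4 genes encode catalytic subunits and membrane anchors alone, was nearly level at 688, 685, 744 and 683. The sexes overlapped in each of the complexes (exact permutation test, two-sided, p = 1 in complexes I to IV and p = 0.667 in complex V).

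**Figure D1:**
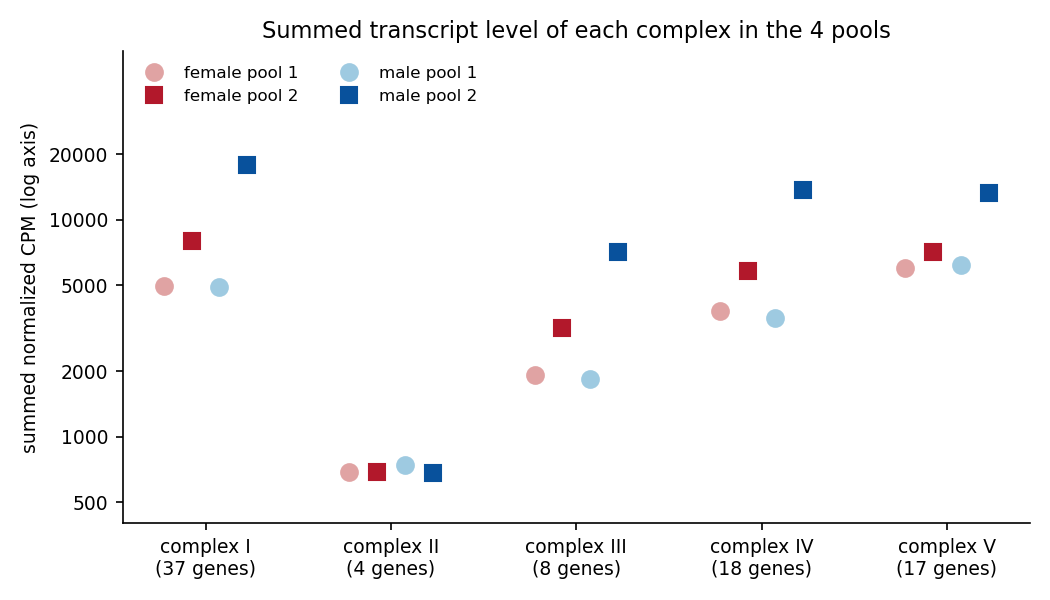
Summed normalized CPM (log axis) of the genes of each of the 5 complexes, with a point for each pool (circles for pool 1, squares for pool 2, red for females, blue for males). Male pool 2 is highest in complexes I, III, IV and V, where female pool 2 is second, while the 4 pools lie between 683 and 744 normalized CPM in complex II.

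Per kilobase of transcript, the most abundant member was Cox6a1 of complex IV, the widely expressed form of subunit VIa. It was present at 1034 and 2044 normalized CPM per kilobase in the female pools and at 922 and 4473 in the male pools. Ndufa3, an accessory subunit of complex I, followed with 833, 1950, 773 and 4545. The small complex III subunit Uqcr11 had a mean of 1752 ± 1645 and Uqcr10 of 1586 ± 1494 (SD, n = 4 pools), Cox6b1 of 1535 ± 1103, Ndufa1 of 1067 ± 999.5, and in complex V Atp5e had 1182 ± 961 and Atp5j 1108 ± 938. With SDs close to the means, the order of these neighbours is not separable from the spread between pools. In complex II, Sdhb had 245 ± 38.2 and Sdhd 115 ± 5.54. The median gene of complex II had 95.5 normalized CPM per kilobase, against 204 in complex I, 694 in complex III, 615 in complex IV and 608 in complex V. With the length of all annotated exons merged in place of the typical transcript, these medians were 85.9, 149, 335, 395 and 232, so that complex II remained lowest and the order of complexes III, IV and V changed.

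Males were compared with females with edgeR's quasi-likelihood test across all 10865 genes. No member passed an adjusted p of 0.05 (Benjamini-Hochberg), as no tested gene did (0.0%). The smallest adjusted p over all tested genes was 0.186, although log2 fold changes reached 10.5, so even large differences did not pass. The study, also with edgeR, listed genes as higher in males at a false discovery rate below 0.05, some of them on the Y chromosome. The absence of calls here therefore does not show that the sexes were alike. At an unadjusted p under 0.05 there was also no member, where 0.442% of all tested genes fell below it (0.322% as higher and 0.12% as lower in males). DESeq2 called 0 members at the adjusted threshold and 4 at an unadjusted p under 0.05. The p-values measure the spread between 2 pools of mice per sex, and whether the pools were sorted and processed separately is not stated. The log2 fold change of male over female was above 0 in 71 of 79 members (89.9%, against 53.2% of all tested genes), with a median of 0.81 against 0.03 over all genes. The medians of the complexes were 0.81 for complex I, 0.02 for complex II, 0.88 for complex III, 0.87 for complex IV and 0.65 for complex V. Once each pool's trend with transcript length and GC content over all genes was removed, the median over members was 0.13, with 79.7% above 0, and those of complexes I to V were 0.13, -0.02, 0.11, 0.19 and 0.14.

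These differences rested on male pool 2. Without it the median over all members was -0.25, 27.8% of members were higher in males (49.4% of all genes tested without that pool), and the medians were -0.26, 0.10, -0.25, -0.39 and -0.09 for complexes I to V. Without male pool 1 the median was 1.45 and 46 of 79 members passed the adjusted threshold, where 5.72% of all genes did; the single male pool is then assumed to vary like the female pools. The median was 0.44 without female pool 1 and 1.15 without female pool 2, with 0 members passing in each. Within pool number 1 the median log2 ratio of male over female was -0.02, and 38 of 79 members were above 0. Within pool number 2 it was 1.15, with 71 of 79 above 0. The male pools lay entirely above the female pools in 3 members (Ndufa9, Cox7a2l and Atp5c1, named after their values were seen) and entirely below in none, against 9.47% and 11.7% of all tested genes.

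**Figure D2:**
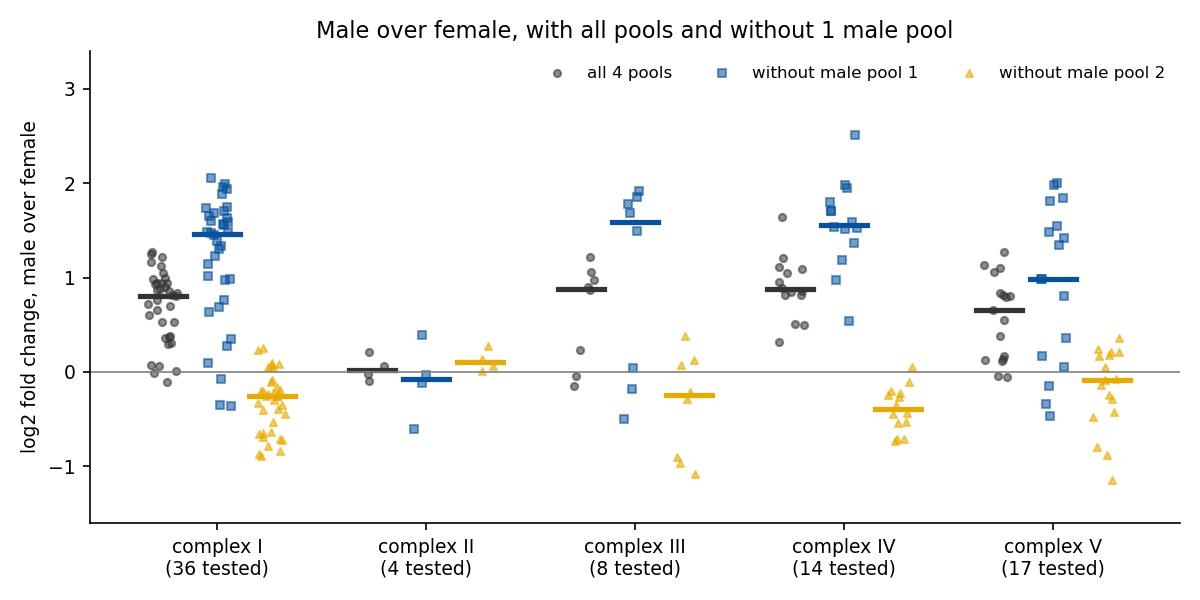
Log2 fold change of male over female for each tested member, by complex, with all 4 pools (grey circles), without male pool 1 (blue squares) and without male pool 2 (yellow triangles), where bars give medians. The median of complex IV is 0.87 with all pools, 1.56 without male pool 1 and -0.39 without male pool 2, while that of complex II lies between -0.075 and 0.10.

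As the pools of a sex differed, pool 2 was also set against pool 1 with both sexes together. The labels number the pools but do not say what a number marks, and this comparison was chosen because earlier results of these data showed that the numbers stood apart. In edgeR's quasi-likelihood test, adjusted by Benjamini-Hochberg, 7 of 79 members were higher in pool 2 and none was lower, where 2.03% of all tested genes passed, 1.86% as higher and 0.175% as lower. At an unadjusted p under 0.05 there were 53 members, all higher, against 23.7% of all genes (14.4% as higher and 9.22% as lower). The median log2 fold change was 1.28, against -0.03 over all tested genes, and 65 of 79 members were above 0 (82.3%, against 47.9% of all genes). By complex it was 1.28, -0.09, 1.34, 1.47 and 0.73. In 61 of 79 members both pools 2 lay above both pools 1 (26.5% of all genes), and in 8 both lay below (29.0%). Within each sex taken alone, pool 2 was above pool 1 in both sexes in 62 members (31.2% of all genes) and below it in 8 (35.0%). The order with male pool 2 highest and female pool 2 second held in 61 members, against 19.4% of all genes. Within females alone the median log2 ratio of pool 2 over pool 1 was 0.49 and within males alone 1.80. A fit without 1 pool leaves a single pool under a number, which is assumed to vary like the pools of the other number. Without male pool 2 the median log2 fold change was 0.47, 64 members were above 0 and 21 passed (2.12% of all genes in that fit). Without male pool 1 it was 1.22 with 3 passing (1.54% of all genes). Leaving out female pool 1 gave 1.29 with 4 passing (3.57%), and leaving out female pool 2 gave 1.77 with 60 passing (22.9%).

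The number of members called depended on the test. DESeq2 called 42 members, where it called 5.99% of all genes, and 29 passed in edgeR with sex as a block, where 7.43% of all genes did. With no filter 47 members passed (8.42% of all genes), and with library size as the only scaling 30 did (7.03%). Adjusted p-values of the 7 members lay between 0.0391 and 0.0490, and those of Uqcr10, Ndufa3, Cox7a1 and Cox6a2, with log2 fold changes between 1.36 and 2.26, lay between 0.0524 and 0.0613, so that the threshold ran through a series of close values. Without male pool 2 the log2 fold changes of the 7 were lower. They were 1.71 for Atp5k, 1.55 for Uqcr11, 1.44 for Uqcrq and 1.32 for Atp5j2. For Ndufb7, Atp5e and Ndufv3 they were 1.32, 1.27 and 1.23. That fit holds a single pool 2, and the 7 were picked with the same libraries, so it is no separate support.

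Some lists of cell type markers moved along with the pool number. Of the 6 dendritic cell and macrophage genes, 4 had both pools 2 above both pools 1 and 1 had both below. Of all tested genes, 26.5% and 29.0% did. The list summed to 1942 and 3222 normalized CPM in female pools 1 and 2 and to 1417 and 4224 in male pools 1 and 2. Most of each sum was Lyz2, with 1161, 2397, 841 and 3327 in the same order. Siglech was lower in both pools 2, and Flt3 was 412 in female pool 1 and 317 in female pool 2. The 8 epithelial genes summed to 375, 638, 414 and 608, and the 5 tested mTEC genes to 79.9, 108, 75.5 and 110. All 5 tested B cell genes were lower in both pools 2 (29.0% of all tested genes were), and the list summed to 4354, 2840, 3564 and 2396. The 3 genes of any blood cell were also lower in both pools 2. Of 5 tested thymocyte genes, 1 was higher in both pools 2 and 1 lower. Of 4 MHCII genes, 1 was higher and 0 were lower. None of these genes passed the adjusted threshold in the main fit with all 4 pools. With each pool's trend with transcript length and GC content removed, 3 of the 6 dendritic cell and macrophage genes passed. So did 1 epithelial and 1 B cell gene, against 3.52% of all genes, and no mTEC, MHCII, thymocyte or any blood cell gene. Without male pool 2 the median log2 fold changes were 0.78 for dendritic cells and macrophages, 0.60 for epithelium, 0.90 for mTECs and -0.48 for B cells. Their part in the differences between pools was not tested.

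**Figure D3:**
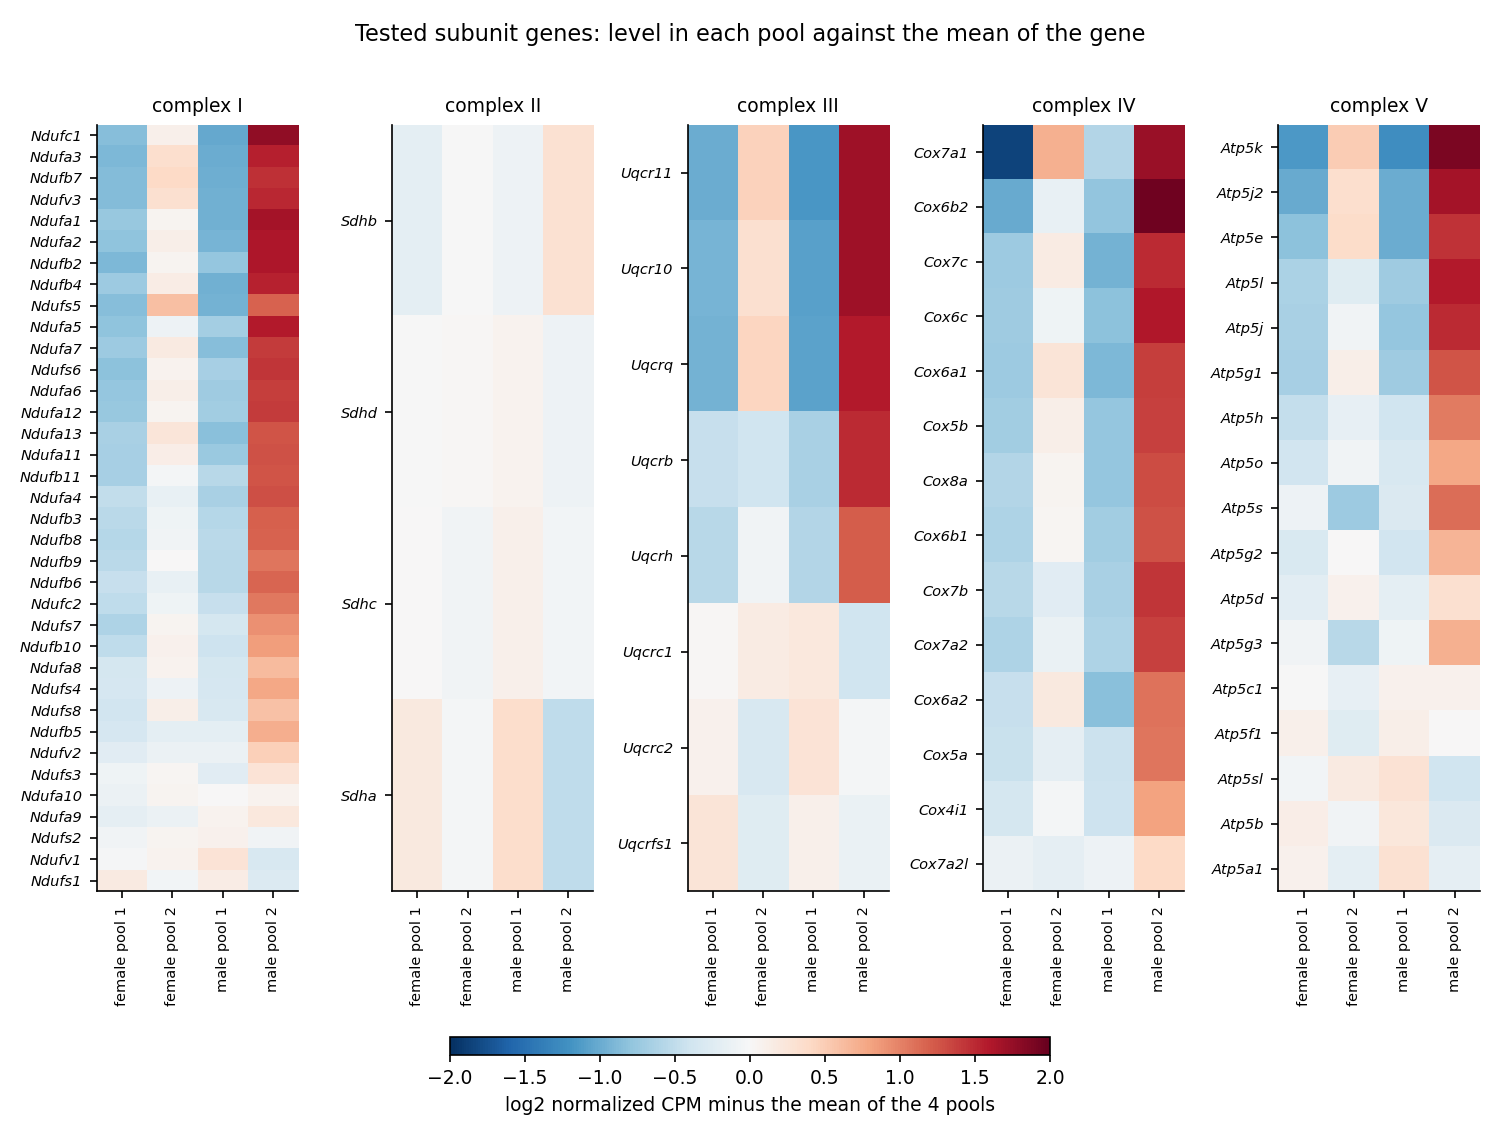
Log2 normalized CPM of each tested member in the 4 pools minus the mean of the gene over the pools, by complex, in the order of the fold change of pool 2 over pool 1 (red above the mean, blue below). Small subunits such as Atp5k and Uqcr11 fill the upper rows with male pool 2 deep red, and the large subunits Sdha, Ndufs1 and Uqcrc1 at or near the bottom are lowest in male pool 2.

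In complex III the large and small subunits parted. Uqcrc1 and Uqcrc2 are the core proteins, Uqcrfs1 is the Rieske iron-sulfur protein that passes electrons toward cytochrome c, and the remaining 5 are small subunits. Uqcrc1 was present at 320 and 350 normalized CPM in female pools 1 and 2 and at 364 and 239 in male pools 1 and 2. Its log2 fold change was -0.15 for male over female (standard error 0.41) and -0.22 for pool 2 over pool 1 (standard error 0.30, adjusted p = 0.705, edgeR). Male pool 2 was the lowest of the 4 pools. By contrast Uqcr11 had 280, 774, 248 and 1817 in the same order, a log2 fold change of 2.29 for pool 2 over pool 1 (standard error 0.44, adjusted p = 0.0455, edgeR). Of the 50-base windows of Uqcr11, 39.1% occur elsewhere in the genome, so its count is less certain. Uqcrq, known as the ubiquinone-binding protein QP-C, had 205, 536, 188 and 1192, a log2 fold change of 2.14 (standard error 0.41, adjusted p = 0.0455, edgeR). In both genes the pools 2 lay above the pools 1 without overlap. Uqcr10 followed at 264, 629, 238 and 1623 with an adjusted p of 0.0524. Uqcrb had 264, 275, 232 and 1023, so that here male pool 2 alone was high, and of its windows 61.5% are found elsewhere in the genome, which makes its count uncertain. The median log2 fold change of pool 2 over pool 1 was -0.35 over the 3 core genes and 2.14 over the 5 small ones, a grouping made after the values were seen. These medians were -0.42 and 1.32 without male pool 2.

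The coding sequences of the 3 shortest of the genes that passed are printed to show how small these transcripts are, from the NCBIM37 (mm9) annotation with start and stop codon in capitals. Uqcr11 lies on the minus strand at chr10:79865742-79869575, Atp5e on the minus strand at chr2:174286573-174289606 and Atp5k on the minus strand at chr5:108862263-108863467, and their coding lengths are 171, 159 and 216 bases.
Uqcr11: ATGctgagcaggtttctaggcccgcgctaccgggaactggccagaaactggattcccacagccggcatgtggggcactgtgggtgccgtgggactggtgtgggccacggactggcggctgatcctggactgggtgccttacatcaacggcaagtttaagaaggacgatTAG
Atp5e: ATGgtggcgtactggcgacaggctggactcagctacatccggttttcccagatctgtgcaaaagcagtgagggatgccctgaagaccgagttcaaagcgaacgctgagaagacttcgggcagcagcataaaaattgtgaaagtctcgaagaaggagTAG
Atp5k: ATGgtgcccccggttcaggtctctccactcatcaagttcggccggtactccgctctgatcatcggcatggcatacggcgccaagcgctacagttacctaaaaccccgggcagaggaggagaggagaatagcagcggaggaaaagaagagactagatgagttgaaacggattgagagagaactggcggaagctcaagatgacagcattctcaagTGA

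Complex V also differed by subunit. The catalytic head is formed by the alpha and beta subunits encoded by Atp5a1 and Atp5b around a central stalk with the gamma, delta and epsilon subunits (Atp5c1, Atp5d and Atp5e). The values of Atp5b were 1474 and 1284 normalized CPM in females and 1585 and 1101 in males, with both pools 2 lowest. Of the 5 head genes, 2 had both pools 2 above both pools 1 and 2 had both below. Atp5e had the largest step, with 222, 506, 196 and 1067 and a log2 fold change of 1.91 for pool 2 over pool 1 (standard error 0.40, adjusted p = 0.0490, edgeR). Atp5d had a smaller one, with 384, 469, 386 and 550 and a log2 fold change of 0.40. The summed level of the 5 head genes ran from 3142 to 3696 normalized CPM over the 4 pools. Among the small membrane subunits e, f and g, Atp5k (subunit e) had 102, 323, 95.3 and 839. Its log2 fold change of 2.56 for pool 2 over pool 1 (standard error 0.44, adjusted p = 0.0391, edgeR) was the highest of the tested members. Atp5j2 (subunit f) had 214, 538, 216 and 1354, a log2 fold change of 2.14 (standard error 0.45, adjusted p = 0.0490, edgeR). Atp5l (subunit g) had 281, 370, 265 and 1305, but 89.4% of its 50-base windows occur elsewhere in the genome. Atp5j, the coupling factor of the peripheral stalk, had 421, 626, 388 and 1854 with an adjusted p of 0.10.

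The complex V member with the highest log2 fold change of male over female was Atp5l at 1.27 (standard error 0.74), and the lowest was Atp5sl at -0.05 (standard error 0.37), with counts of 79, 51, 229 and 44 in female pools 1 and 2 and male pools 1 and 2. Atp5s had 14, 5, 28 and 23 counts. Neither gene, both outside the classical subunits, had pools that separated by sex or by number.

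The c subunit of the membrane ring is encoded by 3 genes, Atp5g1, Atp5g2 and Atp5g3, whose products differ in the part that is removed after import into mitochondria. The last 237 bases of the 3 coding sequences translate alike over 79 codons, stop codon included, but differ at 64 positions. They are printed from the NCBIM37 annotation to show where the 3 genes differ from each other, with every position that is not alike in the 3 genes in capitals. Atp5g1 lies at chr11:95930166-95936984, Atp5g2 at chr15:102493299-102501478 and Atp5g3 at chr2:73746504-73749383, all on the minus strand.
Atp5g1: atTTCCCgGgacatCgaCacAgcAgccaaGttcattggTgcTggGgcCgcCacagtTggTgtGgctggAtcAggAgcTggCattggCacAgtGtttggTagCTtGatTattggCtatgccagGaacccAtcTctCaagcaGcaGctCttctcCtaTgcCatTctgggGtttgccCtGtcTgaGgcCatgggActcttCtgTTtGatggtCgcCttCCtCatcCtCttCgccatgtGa
Atp5g2: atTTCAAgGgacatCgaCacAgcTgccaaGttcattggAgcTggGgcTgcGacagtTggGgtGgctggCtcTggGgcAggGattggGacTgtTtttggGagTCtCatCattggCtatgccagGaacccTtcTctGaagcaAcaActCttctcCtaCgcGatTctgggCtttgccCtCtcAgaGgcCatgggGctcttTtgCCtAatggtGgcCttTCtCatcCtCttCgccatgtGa
Atp5g3: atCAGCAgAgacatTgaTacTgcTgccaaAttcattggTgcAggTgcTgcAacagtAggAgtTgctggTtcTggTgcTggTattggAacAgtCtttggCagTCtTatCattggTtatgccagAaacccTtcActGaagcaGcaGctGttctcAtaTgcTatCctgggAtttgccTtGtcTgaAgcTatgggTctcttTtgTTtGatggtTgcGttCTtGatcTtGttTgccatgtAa
The longest run alike in all 3 genes is 8 bases, and the longest run alike in a pair is 21 bases, in Atp5g1 and Atp5g2. Copies elsewhere in the genome hold all of the 50-base windows of Atp5g2 (100%) and 73.8% of those of Atp5g1, but none of Atp5g3, and reads with several alignments were not counted.

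Within the c subunit genes the pools differed in their shares of the counts. Copies elsewhere in the genome limit the counts of Atp5g1 and Atp5g2 but not those of Atp5g3. The shares are therefore of counts and not of transcripts, and their intervals cover counting error only. Atp5g1 held 37.0% of the summed counts of the 3 genes in female pool 1 (95% Wilson interval 35.4% to 38.6%) and 37.0% in male pool 1 (35.9% to 38.1%), but 53.7% in female pool 2 (51.6% to 55.7%) and 55.5% in male pool 2 (54.3% to 56.7%). Atp5g3 held 44.2% and 44.8% in the pools 1 and 26.6% and 29.9% in the pools 2. The share of Atp5g2 ran from 14.6% to 19.7%. In normalized CPM, Atp5g1 had 354, 606, 344 and 1346 in female pools 1 and 2 and male pools 1 and 2, and Atp5g3 had 424, 300, 416 and 724, so that Atp5g3 was lowest in female pool 2 and highest in male pool 2. The log2 fold change of pool 2 over pool 1 was 1.48 for Atp5g1 (adjusted p = 0.0804) and 0.29 for Atp5g3 (adjusted p = 0.713, edgeR).

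Complex I has 7 core subunits encoded in the nucleus, which carry the flavin and the iron-sulfur clusters, and a large coat of accessory subunits. The core genes summed to 808 and 997 normalized CPM in female pools 1 and 2 and to 873 and 1316 in male pools 1 and 2, and the accessory genes to 4136, 6993, 4043 and 16490. The median log2 fold change of pool 2 over pool 1 was 0.31 over the 7 core genes and 1.57 over the 29 tested accessory genes, and without male pool 2 these were 0.05 and 0.77. Ndufs1, the largest core subunit, had 47.3, 40.6, 46.6 and 34.65 normalized CPM, with both pools 2 below both pools 1. It had the lowest log2 fold change of male over female in complex I at -0.11 (standard error 0.32). The highest was that of Ndufa5, an accessory subunit of the matrix arm, at 1.27 (standard error 0.72), where the values were 57.1, 92.5, 62.0 and 298 and the sexes overlapped.

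In complex I, 2 of 36 tested members passed as higher in pool 2 over pool 1, where 1.86% of all tested genes did. Ndufb7, an accessory subunit on the intermembrane side, had 184, 442, 170 and 927 normalized CPM, a log2 fold change of 1.95 (standard error 0.39, adjusted p = 0.0475, edgeR). Ndufv3, an accessory subunit of the NADH-oxidizing module, had 111, 253, 104 and 573 and a log2 fold change of 1.94 (standard error 0.39, adjusted p = 0.0475, edgeR). Ndufb7 lies on the plus strand at chr8:86090570-86095525 and Ndufv3 on the plus strand at chr17:31657060-31668266. Both genes had female pool 2 and male pool 2 above the pools 1. The abundant accessory genes Ndufa3 (292, 684, 271 and 1595) and Ndufa1 (200, 351, 173 and 1064), the latter on the X chromosome, showed the same order and had adjusted p-values of 0.0536 and 0.0658. Ndufa4 had 274, 346, 246 and 945 (adjusted p = 0.128). Ndufs5 was the least abundant tested gene of complex I with 8, 12, 17 and 23 counts, and 60.7% of its windows occur elsewhere, so its level is uncertain.

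Complex II is the only one of the 5 that also serves the tricarboxylic acid cycle. Sdha, the flavoprotein that oxidizes succinate, had 244 and 209 normalized CPM in females and 273 and 151 in males. Both pools 2 lay below both pools 1, with a log2 fold change of -0.53 (standard error 0.28, adjusted p = 0.292, edgeR). Sdhb, the iron-sulfur subunit, had 243, 275, 258 and 342, with pool 2 above pool 1 in each sex, and a log2 fold change of 0.30 (standard error 0.28, adjusted p = 0.551, edgeR). Sdhd, a membrane anchor, had 148, 151, 156 and 139, and Sdhc, the other anchor, had a log2 fold change of -0.12. For male over female, Sdhb had the highest value at 0.21 (standard error 0.39) and Sdha the lowest at -0.10 (standard error 0.43).

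In complex IV the 14 tested genes all had a log2 fold change of pool 2 over pool 1 above 0, from 0.26 to 2.26 (47.9% of all tested genes were above 0). At an unadjusted p under 0.05, 12 were higher, against 14.4% of all tested genes. None passed the adjusted threshold (lowest adjusted p = 0.0594, edgeR). The catalytic subunits of this complex come from mitochondrial DNA, so that all its genes in the table are accessory, and none has a coding length of 600 bases or more. Cox6a1 had 590, 1167, 527 and 2554 normalized CPM in female pools 1 and 2 and male pools 1 and 2 (adjusted p = 0.0668). Cox6b1 had 431, 674, 406 and 1591 (adjusted p = 0.0982). Cox4i1, among the first subunits to join during assembly, had 667, 830, 639 and 1480 (adjusted p = 0.226), a smaller step between the pools. Cox7a2l had 115, 111, 117 and 166, with the pools 1 between the pools 2, and 54.3% of its windows occur elsewhere. The highest log2 fold change of male over female was that of Cox6b2 at 1.64 (standard error 0.90), and the lowest that of Cox7a2l at 0.32 (standard error 0.36).

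Several subunits of complex IV, and Ndufa4, exist as a widely expressed form and a form known from muscle, testis or hypoxic tissue that a separate gene encodes. The muscle form Cox6a2 was the best represented of the latter, with 117, 101, 205 and 241 counts in female pools 1 and 2 and male pools 1 and 2. It made up 5.11% (95% Wilson interval 4.28% to 6.09%), 4.11% (3.39% to 4.96%), 4.44% (3.89% to 5.08%) and 3.51% (3.10% to 3.97%) of the counts on Cox6a1 and Cox6a2. The testis form Cox6b2 made up 0.938%, 1.09%, 1.16% and 1.95% of the counts on both Cox6b genes, with the highest share in male pool 2 (interval 1.57% to 2.41%). Cox7a1, a muscle form, held 0.543%, 2.27%, 1.30% and 1.65% of the counts on Cox7a1 and Cox7a2, and with 4, 13, 22 and 34 counts these shares have wide intervals. Of 4 muscle markers, Acta1 had 25 to 57 counts, Ckm 3 to 6, Myl1 0 or 1 and Myh2 0.

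The 5 members that failed the filter on low counts were all forms of this kind. Cox4i2, known from lung and hypoxic cells, had 2, 1, 8 and 1 counts in female pools 1 and 2 and male pools 1 and 2, at most 0.149% of the counts on both Cox4i genes. Cox8b had 0, 0, 1 and 2 counts and Ndufa4l2, a form induced by low oxygen, had 0, 0, 1 and 0. The testis forms Cox7b2 and Cox8c had 0 counts in every pool. A count of 0 allows a share of up to 0.14% of the Cox7b counts for Cox7b2 and 0.0787% of the Cox8a counts for Cox8c in male pool 2, the pool with the most counts on these families. The widely expressed partners Cox7a2 (199, 277, 199 and 782 normalized CPM), Cox7b (208, 263, 195 and 826) and Cox8a (393, 618, 345 and 1467) were highest in male pool 2 like most other members, with adjusted p-values of 0.0895 to 0.123 for pool 2 over pool 1.

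**Figure D4:**
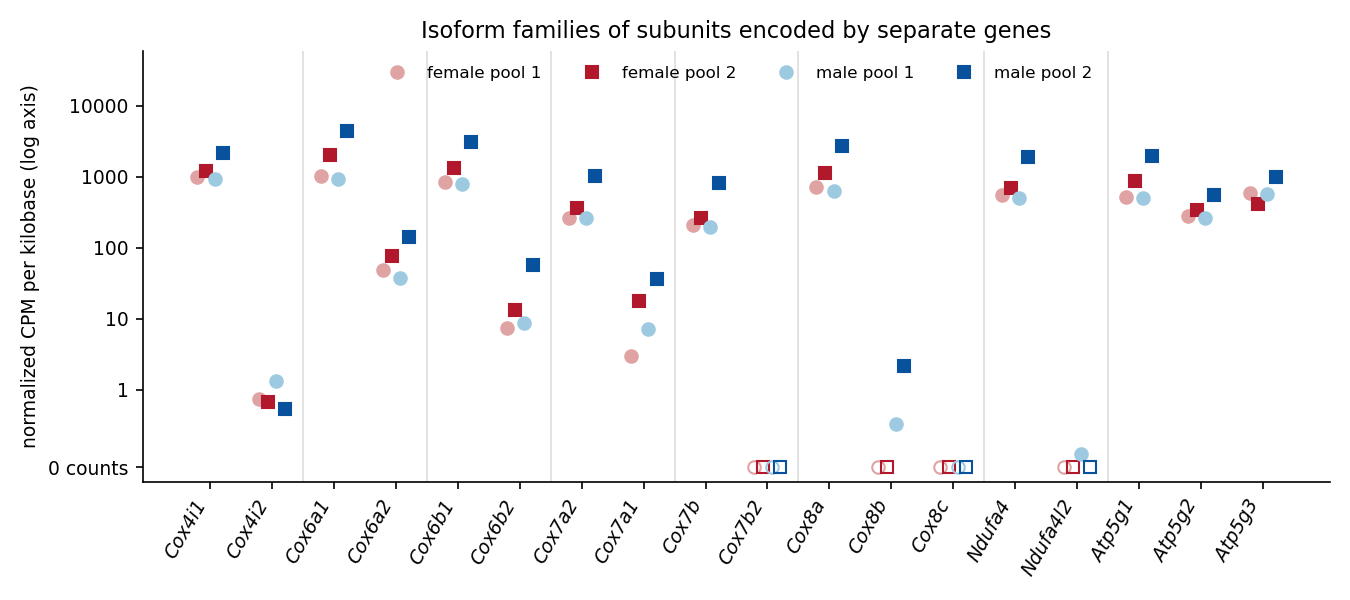
Normalized CPM per kilobase (log axis) of the genes of isoform families in the 4 pools, with open symbols for 0 counts. The muscle, testis and hypoxia forms hold at most 4.60% of the level of their family (Cox7a1 in female pool 2), and Atp5g1 and Atp5g3 change order between the pools 1 and the pools 2.

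The size of the difference between pools followed the length of the coding sequence. Over the 79 tested members, Spearman's rho between coding length and the log2 fold change of pool 2 over pool 1 was -0.82 (Pearson's r with log2 length -0.83). Over all 10086 tested genes with a length it was -0.32. Leaving out male pool 2 gave -0.73 and -0.23. For male over female rho was -0.79 over members and -0.27 over all genes, and without male pool 2 both turned to the opposite sign, with 0.78 and 0.13. These are correlations across genes, which share the 4 libraries and are not independent replicates, and they are given without a test. With transcript length rho was -0.67 over members, and with GC content 0.22.

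The 19 tested members with a coding length under 300 bases had a median log2 fold change of pool 2 over pool 1 of 1.91, and all 19 were above 0. The 38 members with at least 300 but under 600 bases had a median of 1.37, and the 22 members with 600 bases or more had a median of -0.04, with 10 above 0 and 12 below. Other tested genes of the same length classes moved in the same order, with medians of 1.29 (170 genes, 92.9% above 0), 0.52 (1123 genes, 75.7%) and -0.10 (8714 genes, 42.2%). Without male pool 2 the medians of the members were 0.91, 0.54 and -0.02 and those of the other genes 0.58, 0.20 and -0.06. With all pools, 26.3%, 2.63% and 4.55% of the members in the 3 classes passed as higher in pool 2, against 18.2%, 7.21% and 0.677% of the other genes. In the middle class, which holds 38 members, the share that passed was thus lower than among other genes. The members' medians were above those of the other genes in the 2 shorter classes by more than in the longest, and the difference was not tested. Complex IV has 9 of its 14 tested genes in the shortest class and none in the longest, complex III has 4 and 3 of 8, and complex II has none in the shortest and 2 of 4 in the longest. The length of the members thus moves with the complex. Within single complexes, rho between coding length and the log2 fold change of pool 2 over pool 1 was -0.75 in complex I (36 genes), -0.88 in complex III (8 genes), -0.61 in complex IV (14 genes) and -0.92 in complex V (17 genes). They were -0.62, -0.90, -0.42 and -0.78 without male pool 2. Ndufv3 was the member that stood off the trend, as its annotated coding length of 1407 bases is long. The annotation also holds transcripts of this gene with coding lengths of 315 and 261 bases, and the counts do not say which was present.

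**Figure D5:**
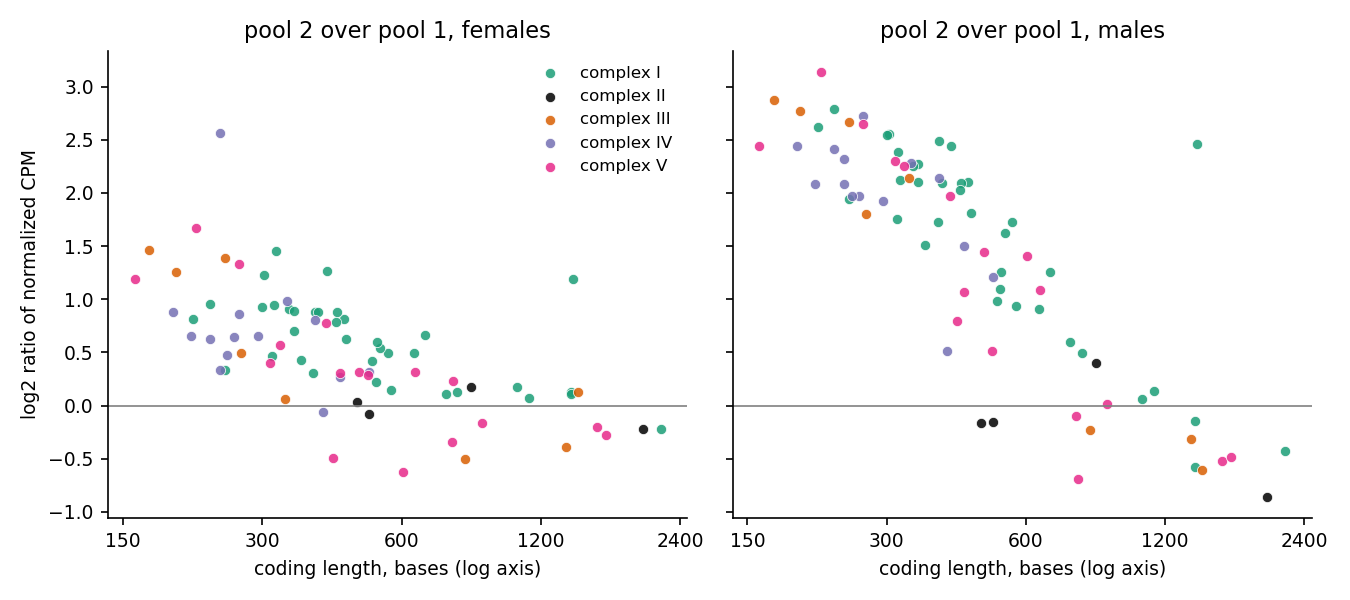
Log2 ratio of normalized CPM of pool 2 over pool 1 for each tested member against its coding length in bases (log axis), in females (left) and males (right), coloured by complex. Ratios fall with length in both sexes, from 1.47 in females and 2.87 in males for Uqcr11 to -0.22 and -0.43 for Ndufs1, and Ndufv3 stands apart at 1407 bases with 1.19 and 2.46.

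When each pool's trend with transcript length and GC content over all genes was removed, the median log2 fold change of pool 2 over pool 1 over members fell to 0.16, and 65.8% were above 0. The medians of complexes I to V were then 0.26, -0.23, -0.0037, 0.35 and -0.06. In this fit 5 members passed the adjusted threshold (3.52% of all genes). These were Ndufc1 and Ndufb2, with log2 fold changes of 1.74 and 2.04, and Uqcrq, Atp5j2 and Ndufv3, which had also passed without the correction and now had 1.48, 1.49 and 1.78 in place of 2.14, 2.14 and 1.94. The other 4 members that had passed did not pass in this fit. Their log2 fold changes were 0.72 for Atp5k (adjusted p = 0.0697), 0.65 for Uqcr11 (adjusted p = 0.110), 0.75 for Ndufb7 (adjusted p = 0.0838) and 0.28 for Atp5e (adjusted p = 0.424, edgeR). The correction used annotated transcript length, which is 371 to 623 bases for these 4 and 955 to 2413 for the 5 that passed. Ndufc1, Uqcrq, Atp5j2 and Ndufb2 nevertheless have coding lengths of 231 to 318 bases. No trend with coding length was fitted, so passing here does not set a member apart from its coding length.

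Other genes of mitochondrial energy metabolism were examined as lists. Of 37 tested assembly factors, which put the complexes together, 3 passed as higher in pool 2 (1.86% of all genes did), and 10 were higher at an unadjusted p under 0.05 (14.4% of all genes), with a median log2 fold change of 0.36. With male pool 2 left out the median was 0.21 and 2 passed. Cox17, a copper chaperone for complex IV, had 126, 297, 100 and 742 normalized CPM in female pools 1 and 2 and male pools 1 and 2, a log2 fold change of 2.20 (adjusted p = 0.0458, edgeR). Pet100, needed for the assembly of complex IV, had 46.8, 139, 37.4 and 352, a log2 fold change of 2.55 (adjusted p = 0.0391, edgeR), and Ndufaf3, an assembly factor of complex I, had 27.7, 56.4, 28.2 and 85.1 (log2 1.34, adjusted p = 0.0475, edgeR). Of 76 mitochondrial ribosomal protein genes 2 passed (Mrps21, log2 2.11, and Mrpl52, log2 1.87), 67 were above 0, against 47.9% of all genes, and the median was 0.51. The share that passed was thus near the 1.86% of all genes. At an unadjusted p under 0.05, 34 of the 76 were higher, against 14.4% of all genes. In 48 of them both pools 2 lay above both pools 1, against 26.5% of all genes. With male pool 2 left out the median was 0.26, with 56 above 0 and 4 passing. Among 14 carriers, cytochrome c and porin genes, the ATP synthase inhibitor Atpif1 passed with 282, 843, 297 and 2686 normalized CPM (log2 2.61, adjusted p = 0.0486, edgeR). The median of that list was 0.04, with or without male pool 2.

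Among enzymes that feed the chain, the order with male pool 2 highest and female pool 2 second held in 0 of 18 tricarboxylic acid cycle genes and in 2 of 16 tested glycolysis genes, against 19.4% of all genes. Whether they differ from the members was not tested, and other genes of 600 or more coding bases also had a median below 0. Of the 18 tricarboxylic acid cycle genes, a list that holds the pyruvate dehydrogenase subunits and leaves out complex II, none passed, 2 were above 0 and 16 below, and the median log2 fold change of pool 2 over pool 1 was -0.24. Mdh2, the mitochondrial malate dehydrogenase, had 291, 301, 326 and 255.7 normalized CPM. The median was -0.15 without male pool 2. Of the glycolysis genes, Hk2, the hexokinase that binds the outer mitochondrial membrane, passed as higher in pool 2 with 54.6, 146, 38.8 and 382 (log2 2.51, adjusted p = 0.0395, edgeR), and the median of the list was -0.10 (0.0012 without male pool 2). Ldha, lactate dehydrogenase, had 1211, 898, 1536 and 756, with both pools 2 below both pools 1 (adjusted p = 0.238). Of 13 tested regulators of mitochondrial gene expression none passed, 9 were below 0 and the median was -0.43 (-0.30 without male pool 2). In male over female, none of the genes in these lists passed the adjusted threshold (edgeR), and the medians were 0.26 for assembly factors, 0.31 for mitochondrial ribosomal proteins, 0.04 for carriers, 0.02 for the tricarboxylic acid cycle, -0.11 for glycolysis and -0.01 for regulators.

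The promoters of the members were searched for motifs of factors known to act on nuclear genes of respiration. RefSeq promoters of 300 bases, from 250 before to 50 after the start on GRCm38.p6, were found for 66 members (71 promoters), and motifs were counted on both strands, each on its own, so that matches of different motifs may overlap. The NRF1 motif CGCATGCG was in 12.7% of them, against 1.87% of 32851 promoters of all genes. The ETS motif CCGGAAG was in 22.5% against 8.86%, the YY1 motif AAGATGGC in 12.7% against 2.75%, and the SP1 motif GGGCGG in 38.0% against 35.7%. Of the 45 promoters of genes with a log2 fold change of pool 2 over pool 1 above 1, 6 held the NRF1 motif and 12 the ETS motif. The YY1 motif was in 7 of them and the SP1 motif in 17. Of the 8 promoters of genes at or below 0, NRF1 and ETS motifs were each in 1, YY1 in 0 and SP1 in 2. A pair of promoters is shown to compare a gene that was higher in pool 2 with a gene that was not, with NRF1 and ETS motifs in capitals. That of Atp5k is chr5:108434350-108434649 (minus strand) and that of Uqcrc1 is chr9:108936398-108936697 (plus strand), both on GRCm38.p6.
Atp5k: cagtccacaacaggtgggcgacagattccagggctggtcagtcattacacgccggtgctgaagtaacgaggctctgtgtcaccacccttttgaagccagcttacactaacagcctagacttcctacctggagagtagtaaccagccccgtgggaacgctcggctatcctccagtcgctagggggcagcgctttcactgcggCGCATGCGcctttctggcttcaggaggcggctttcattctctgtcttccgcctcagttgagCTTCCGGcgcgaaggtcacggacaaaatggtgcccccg
Uqcrc1: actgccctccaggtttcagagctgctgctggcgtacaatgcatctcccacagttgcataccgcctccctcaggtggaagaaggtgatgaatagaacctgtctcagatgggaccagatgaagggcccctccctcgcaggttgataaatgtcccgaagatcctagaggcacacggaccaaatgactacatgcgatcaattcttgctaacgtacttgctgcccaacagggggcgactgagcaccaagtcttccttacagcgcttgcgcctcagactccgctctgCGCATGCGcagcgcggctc
Both hold the NRF1 motif, and Atp5k also holds the ETS motif on the opposite strand. A match of letters is not a bound site.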

How the data were processed

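RNA of sorted mTECs was sequenced from 2 pools of 10 mice per sex after cDNA synthesis with the SMARTer Ultra Low kit. Per the study's methods, the authors removed low-quality reads with Trimmomatic, aligned the rest to mm9 with TopHat2 and made the deposited read counts per gene with HTSeq, without normalization. Versions, gene annotation and strand setting are not given in the sources used here. Rows of unassigned reads (66.9% to 70.2% of a pool) were left out of library sizes and tests. Depth was 1976272 to 7103627 gene reads, and 3 counts, the limit of a count of 0, were 0.358 to 1.48 normalized CPM.

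The counts of all genes were fitted with edgeR 4.0.16 in R 4.3.3 (quasi-likelihood test, TMM, filterByExpr with a minimum count of 10, prior count 0.125, Benjamini-Hochberg at 0.05, two-sided, sex or pool number as the only term). The standard error of a log2 fold change is its size over the root of F. DESeq2 1.42.0, upper-quartile and library size scaling, 2 other filters, a prior count of 2, blocks, the removal of trends with length and GC content (lengths for 92.8% of tested genes) and each pool left out in turn were alternatives. Only the main male over female fit was tried on simulated counts. Transcript and coding lengths, coordinates and 50-base windows are those of NCBIM37.

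The members, lists and tests were chosen with earlier results of these data known. Members given pool by pool are the 2 most abundant per kilobase and the highest and lowest male over female fold change of each complex, those past an adjusted p of 0.05, isoform families, members that failed the filter and entries that are no subunit, and genes of other lists are the most abundant 2 and the 3 lowest p among those called. Any further gene was named after its values were seen. Groups of core and small subunits and length classes, and the relation with length within complexes and without male pool 2, were added after the values were seen. The pool numbers share only a number in the labels, with 2 pairs, whose deviations from the sex means had a correlation of 0.519 over all tested genes.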

Additional observations from a re-analysis of the deposited data

Results flagged for a closer look

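The direction of male over female in the summed level differed between the pool numbers. For all members the log2 ratio of male over female was -0.0083 in pool 1 and 1.0858 in pool 2. For complex I it was -0.0082 and 1.1565, for complex III -0.0519 and 1.1584, and for complex IV -0.0948 and 1.2466. For complex II it was 0.1121 in pool 1 and -0.0057 in pool 2. Each value compares a single pool of each sex, so the difference between the pool numbers was not tested. Values near 0 in pool 1, and in complex II, carry little weight as a direction. Male pool 2 is the pool with the lowest TMM factor, 0.78.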

How the results depend on the processing

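The absence of members past the adjusted threshold in male over female remained under 7 of the alternatives that kept all pools (upper-quartile scaling, library size only, no filter, over 1 CPM, DESeq2, a prior count of 2, the replicate block), and the correction for length and GC content also gave 0. At an unadjusted p under 0.05, 17 members passed with no filter, 4 with DESeq2 and 4 with pool number as a replicate block, which lowered the median log2 fold change from 0.81 to 0.53 and gave 0 adjusted calls. The labels do not say that the numbers pair the pools. Leaving out a pool gave 0 to 46 adjusted calls, 0 to 54 unadjusted calls, 27.8% to 92.4% of members higher in males, and medians of -0.25 to 1.45 over all members, -0.26 to 1.46 for complex I, -0.075 to 0.10 for complex II, -0.25 to 1.59 for complex III, -0.39 to 1.56 for complex IV and -0.088 to 0.99 for complex V.

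In pool 2 over pool 1 the 7 calls became 42 with DESeq2, 29 with sex as a block, 47 with no filter and 30 with library size only, and the cause was not tested. Library size only moved the median of all genes by -0.32 on the log2 scale. It gave 74.7% of members higher and a complex II median of -0.40, which is -0.16 with no filter. With the length and GC correction 22 members had an unadjusted p under 0.05, 65.8% were higher, and the medians were 0.16 over all members and 0.26, -0.23, -0.0037, 0.35 and -0.063 for complexes I to V. Leaving out a pool gave 3 to 60 adjusted and 35 to 65 unadjusted calls, 81.0% to 83.5% higher, and medians of 0.47 to 1.77 over all members, 0.54 to 1.83 for complex I, -0.14 to -0.060 for complex II, 0.32 to 1.94 for complex III, 0.70 to 2.04 for complex IV and 0.27 to 1.15 for complex V. Without male pool 2 the calls were 21, without female pool 2 they were 60.

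Signs of named genes changed in male over female under the length and GC correction for Atp5e (-0.11), Atp5g2 (-0.079), Cox6a2 (-0.14), Ndufa3 (-0.048) and Ndufa4 (-0.042). In pool 2 over pool 1 they changed with library size only for Atp5g3 (-0.10), Cox7a2l (-0.092) and Sdhb (-0.034), and under the correction for Atp5g2 (-0.35), Atp5g3 (-0.68), Cox4i1 (-0.23), Cox7a2l (-0.14), Ndufa4 (-0.10) and Sdhb (-0.15). The summed level of complex II, males minus females, changed from 26.4 normalized CPM to -7.46 with library size only and to -14.9 without Sdhb. Leaving out a pool changed the sign of these genes, whose log2 fold changes of male over female then ran over Atp5e -0.88 to 1.55, Atp5g1 -0.47 to 1.48, Atp5g2 -0.24 to 0.80, Atp5j -0.42 to 1.81, Atp5j2 -0.79 to 1.90, Atp5k -1.14 to 2.23, Atp5l -0.28 to 1.995, Atp5sl -0.46 to 0.25, Cox4i1 -0.22 to 0.97, Cox6a1 -0.73 to 1.53, Cox6a2 -0.71 to 1.19, Cox6b1 -0.44 to 1.52, Cox6b2 -0.20 to 2.51, Cox7a1 -0.35 to 2.78, Cox7a2 -0.24 to 1.71, Cox7b -0.26 to 1.80, Cox8a -0.54 to 1.53, Ndufa1 -0.66 to 1.94, Ndufa3 -0.84 to 1.70, Ndufa4 -0.32 to 1.60, Ndufa5 -0.25 to 1.99, Ndufb7 -0.86 to 1.61, Ndufs1 -0.36 to 0.0866, Ndufv3 -0.79 to 1.65, Sdha -0.60 to 0.27, Sdhd -0.12 to 0.0658, Uqcr10 -0.90 to 1.86, Uqcr11 -1.07 to 1.91, Uqcrb -0.21 to 1.91, Uqcrc1 -0.50 to 0.13 and Uqcrq -0.97 to 1.78, and of pool 2 over pool 1 over Atp5g3 -0.49 to 0.81, Atp5s -0.52 to 1.35, Atp5sl -0.52 to 0.0243, Cox7a2l -0.0732 to 0.55 and Uqcrc1 -0.49 to 0.0272. In male over female 31 of the 35 tested named genes changed sign without male pool 2. Depth limits the rarest members, since a count of 0 allows 0.358 to 1.48 normalized CPM.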
